A study of Mus musculus with 23 samples.

Results

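The cell cycle genes described here are a list of 30 genes chosen by name for their known roles, and all 30 were found by symbol among the 21264 genes of the deposited expression table. The list holds 13 genes of DNA replication and S phase (Mcm2 to Mcm7, Pcna, Tyms, Rrm2, Ccne1, Ccne2, Cdc6 and E2f1) and 15 genes of mitosis (Mki67, Top2a, Ccnb1, Ccnb2, Cdk1, Ccna2, Plk1, Aurka, Aurkb, Bub1, Birc5, Cdc20, Kif11, Cenpf and Cenpa). The other 2 are the D-type cyclins Ccnd1 and Ccnd2. They were followed in 23 bulk RNA libraries of iPax3 cells, a mouse embryonic stem cell line in which the transcription factor Pax3 can be switched on to give myogenic progenitors. The cultured groups were progenitors of wild-type genotype (control, 4 libraries) and progenitors that overexpress NICD1, the active part released from the Notch1 receptor (N1OE, 3 libraries). The re-isolated groups were cells that the labels call donor-derived satellite cells, taken back after engraftment: control (9 libraries), N1OE (4 libraries) and N1KO, a Notch1 knockout (3 libraries). The labels give no host, age, clone, pooling or promoter, and nothing says whether the replicates of a group came from different cultures or animals. The p-values therefore cover only library-to-library spread, part of which may be technical.

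Cells that divide copy their DNA in S phase and separate it in mitosis, and different genes are switched on for each step. D-type cyclins link growth signals to the kinases that inactivate the retinoblastoma protein, which frees E2F factors to switch on the S-phase genes. Mitotic genes are switched on later through promoters that carry a CCAAT box and an element called the cell cycle homology region (CHR), and both groups are held down in resting cells by the DREAM complex. Muscle satellite cells are the resting stem cells of skeletal muscle, and Notch signalling is known to keep them in that state.

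The libraries held 11637817 to 29154176 reads each. Levels are given in CPM, a read count scaled to library size, and 1 read was worth 0.0343 to 0.0859 CPM. Cultured and re-isolated libraries were made with different kits, so that setting and kit cannot be told apart in any comparison between them. Notch1 itself lay between 297.5 and 369.8 CPM in cultured N1OE against 61.35 to 105.3 CPM in cultured controls. After re-isolation it lay between 98.12 and 257.2 CPM in N1OE and between 15.57 and 52.57 CPM in N1KO, against 14.93 to 174.2 CPM in controls. The re-isolated N1OE range thus overlapped that of the re-isolated controls. The knockout range overlapped that of the controls, and since the labels do not give the deleted stretch, these reads do not check the knockout. The name of the deposited table holds a word that may stand for a correction involving Notch, and whether the Notch1 values were adjusted is not known, although they too come out as whole reads. Pax7, the defining gene of satellite cells, was between 0 and 0.891 CPM in the 7 cultured libraries and between 11.5 and 154 CPM in the 16 re-isolated ones. Of the 9 re-isolated controls, 5 (replicates 1, 4, 7, 8 and 9, called marked) carry the letters GoF in their column headers and 4 (replicates 2, 3, 5 and 6, called unmarked) do not, and the labels leave the letters unexplained. All 4 cultured controls and cultured N1OE replicate 1 carry the letters too, and the other 2 cultured N1OE libraries and all re-isolated N1OE and N1KO libraries do not. For replicate 7 the letters are in the header alone and not in the sample's description. Because the sets differed in many genes, counts of members against re-isolated controls are given for both sets, and single genes are against all 9 controls unless a set is named. Cultured N1OE replicates 2 and 3 were the closest pair of that group, but their counts differed beyond sampling noise (3.43 times the chi-square of pure counting error, against 31.3 and 36.8 times in the pairs with replicate 1), and they were kept as 2 samples.

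The promoters of the members show in letters how the S-phase and mitotic genes differ, and 8 of them are printed because their letters show the contrast, 4 mitotic and 4 S-phase. Of the 30 members 24 matched an entry of the RefSeq promoter table of build GRCm38.p6, with 25 windows since Mcm7 has 2 starts. Each window runs from 250 bases before the start to 50 after it. Letters of 3 kinds were searched on both strands. The CHR was searched as TTTGAA and also as the variant TTTAAA, and the CCAAT box as its own letters. An E2F site was searched as TTCCCGC, with the variants TTCGCGC and, besides these, TTGGCGC and, as the last form, TTGCCGC. Matches can share letters where they overlap, as an E2F and a CCAAT match do in the Ccnb1 promoter. The lines give the 170 bases before the start, 5' to 3' on the gene's strand, with the matches in capitals.
Ccnb1, chr13:100786487-100786656, minus strand: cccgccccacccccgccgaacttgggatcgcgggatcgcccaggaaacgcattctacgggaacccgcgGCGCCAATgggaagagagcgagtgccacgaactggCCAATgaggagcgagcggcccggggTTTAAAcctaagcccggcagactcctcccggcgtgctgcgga
Cdk1, chr10:69352913-69353082, minus strand: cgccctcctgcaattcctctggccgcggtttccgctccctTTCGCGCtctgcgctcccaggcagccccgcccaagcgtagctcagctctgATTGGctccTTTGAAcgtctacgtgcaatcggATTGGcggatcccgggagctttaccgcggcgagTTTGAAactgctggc
Plk1, chr7:122159265-122159434, plus strand: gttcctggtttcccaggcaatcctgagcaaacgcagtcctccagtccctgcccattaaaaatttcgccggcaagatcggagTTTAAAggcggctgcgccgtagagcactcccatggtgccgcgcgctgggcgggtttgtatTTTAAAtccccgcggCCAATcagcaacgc
Cdc20, chr4:118437344-118437513, minus strand: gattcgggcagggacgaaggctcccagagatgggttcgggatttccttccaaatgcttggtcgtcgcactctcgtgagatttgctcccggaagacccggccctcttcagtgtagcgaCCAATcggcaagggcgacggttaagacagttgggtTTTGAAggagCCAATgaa
Mcm5, chr8:75109339-75109508, plus strand: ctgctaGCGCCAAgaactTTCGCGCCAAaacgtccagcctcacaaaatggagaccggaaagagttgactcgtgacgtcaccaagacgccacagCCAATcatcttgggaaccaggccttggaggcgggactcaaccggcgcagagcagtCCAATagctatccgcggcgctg
Mcm6, chr1:128359706-128359875, minus strand: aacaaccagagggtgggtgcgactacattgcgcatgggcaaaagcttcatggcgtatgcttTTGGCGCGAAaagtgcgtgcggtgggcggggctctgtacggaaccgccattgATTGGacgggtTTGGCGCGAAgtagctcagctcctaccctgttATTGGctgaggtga
Mcm7, chr5:138171884-138172053, minus strand: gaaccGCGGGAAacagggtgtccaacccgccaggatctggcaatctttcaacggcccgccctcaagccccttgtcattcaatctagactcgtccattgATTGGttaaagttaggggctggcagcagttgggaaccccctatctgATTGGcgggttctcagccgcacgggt
Cdc6, chr11:98907981-98908150, plus strand: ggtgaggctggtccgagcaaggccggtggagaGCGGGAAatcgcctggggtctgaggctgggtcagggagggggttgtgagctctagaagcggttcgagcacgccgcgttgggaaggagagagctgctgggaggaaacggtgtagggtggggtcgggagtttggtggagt

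CHR letters were in 12 of 13 windows of mitotic members and in 4 of 12 windows of S-phase members, against 27.6% of all 32851 windows of the table. CCAAT letters were in 12 of 13 mitotic and 8 of 12 S-phase windows, against 37.4% of all. E2F letters were in 3 of 13 mitotic and 7 of 12 S-phase windows, against 9.57% of all. This contrast was smaller within the last 150 bases before the start. There E2F letters were in 3 of 13 mitotic and 4 of 12 S-phase windows, against 5.47% of all. Both CHR and CCAAT letters were in 11 of 13 mitotic windows and in 3 of 12 S-phase windows, against 10.7% of all. Within the last 150 bases before the start the pair was in 8 of 13 mitotic windows and in 0 of 12 S-phase windows, against 3.6% of all. In the printed lines, Ccnb1 (cyclin B1, the mitotic partner of the kinase encoded by Cdk1), Cdk1 itself, Plk1 (polo-like kinase 1) and Cdc20 (the activator of the anaphase-promoting complex) each hold CHR letters close to the start, while Mcm6, Mcm7 and Cdc6 hold E2F letters and no CHR. Mcm5 holds E2F letters in its line and CHR letters further upstream, at 221 bases before the start. The lines of Ccnb1 and Cdk1 hold E2F letters as well. A match is a description of the letters and not of binding.

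**Figure D1:**
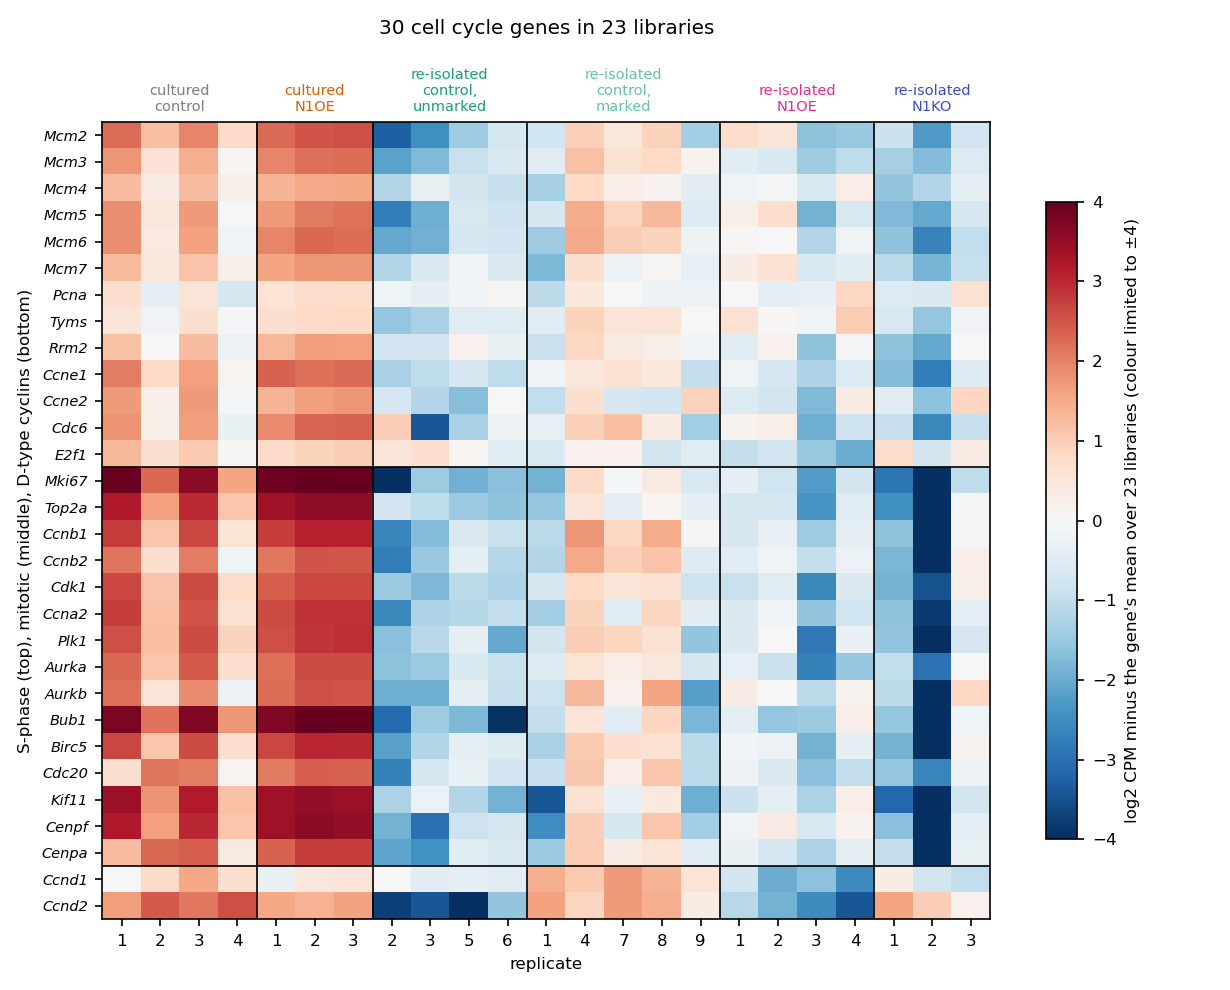
Heat map of log2 CPM of each of the 30 members (rows, S-phase above, mitotic in the middle, D-type cyclins below) in each of the 23 libraries (columns, by group and replicate), after subtracting the mean of the gene over the 23 libraries. Cultured N1OE libraries, cultured control replicates 1 and 3 and re-isolated control replicate 4 are red for all 28 S-phase and mitotic members. Cultured control replicates 2 and 4 are below the gene mean in 3 and 9 of them, as are re-isolated control replicates 8 and 7. N1KO replicate 2 is the darkest blue column in the mitotic block, and Ccnd2 (bottom row) splits the re-isolated controls into unmarked and marked sets.

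Levels per kilobase of annotated exon were led by different members in different groups. In cultured controls the D-type cyclins were the highest: Ccnd1 averaged 135.8 CPM per kb (75.03 to 218.2 over the libraries) and Ccnd2 135.2 CPM per kb (90.38 to 172), ranges that overlap almost fully. Ccne1, the cyclin E that acts at the start of S phase, followed at 57.2 CPM per kb, and its range of 24.7 to 95 overlapped that of Ccnd1. In cultured N1OE Ccne1 (110.6 CPM per kb) and Cdc20 (95.1 CPM per kb) averaged above Ccnd1 (90.4 CPM per kb) and Ccnd2 (81.9 CPM per kb). The ranges of Ccne1 and Cdc20 both overlapped that of Ccnd1, and the range of Cdc20 overlapped that of Ccnd2 too. The lowest members in cultured controls were Ccne2 at 3.86 CPM per kb and Cdc6, a factor that loads the MCM helicase, at 3.42 CPM per kb. In re-isolated controls Ccnd1 was again at the top (127.8 CPM per kb) while Bub1, a kinase of the spindle checkpoint (1.06 CPM per kb), and Cenpf, a kinetochore protein (0.786 CPM per kb), were the lowest. In re-isolated N1OE the first place went to Pcna, the sliding clamp of DNA polymerase, at 39.6 CPM per kb, ahead of Ccnd1 at 24.9 CPM per kb, but their ranges (28.5 to 64 and 12.8 to 43.9) overlapped.

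Re-isolated control cells had lower mitotic transcripts than cultured control cells. All 30 members had a negative difference, and 20 fell past the threshold (limma, adjusted p under 0.05), against 33.9% of the 13731 genes tested that did so. By role, 13 of 15 mitotic members, 6 of 13 S-phase members and 1 of 2 D-type cyclins fell. The median log2 difference was -2.37 over the mitotic members and -1.23 over the S-phase members, beside -0.23 over all genes tested. For the S-phase members the share that fell is near the background.

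Mki67, which encodes the proliferation marker Ki-67, was at 524, 168, 414 and 100.4 CPM in cultured controls 1 to 4 and at 1.82 to 57.6 CPM (median 12.6) in the 9 re-isolated controls. The groups did not overlap, and the log2 difference was -4.04 ± 0.73 (SE; limma adjusted p = 0.000243). Top2a, the topoisomerase that untangles chromosomes, was at 537, 183, 467 and 127 CPM in cultured controls and at 19 to 83.2 CPM (median 34.8) in re-isolated ones, a difference of -2.96 ± 0.44 (limma adjusted p = 4.41e-05). Bub1 was at 100.5, 33.4, 97.6 and 25.2 CPM against 0.422 to 13.5 CPM (median 2.71), with the largest difference among the members at -4.19 ± 0.77 (limma adjusted p = 0.000275). For these 3 genes the lowest cultured library lay above the highest re-isolated one. This was so for 5 of the 30 members in all, a smaller share than the 24.7% of all genes tested. The same held for Aurka, a kinase of the spindle poles (23.3 to 80.8 CPM against 4.71 to 21.6 CPM; -2.14 ± 0.45), and for Kif11, a motor that pushes the spindle poles apart (33.1 to 157 CPM against 1.31 to 22.5 CPM; -3.41 ± 0.66). Cenpf overlapped by 1 re-isolated library, at 34 to 146 CPM against 1.96 to 34.4 CPM (-3.22 ± 0.69). Cdk1 (8.56 to 51.9 CPM in re-isolated controls, 49.8 to 189.6 CPM in cultured ones) fell by 2.37 on the log2 scale with only its highest re-isolated library reaching the lowest cultured one. Ccnb1 was at 173, 53, 157 and 36.6 CPM against 3.98 to 84 CPM (median 16.7), and its difference of -2.10 ± 0.72 passed (limma adjusted p = 0.0209) although the ranges overlapped. Without cultured control replicate 1 the adjusted p of Ccnb1 by limma was 0.0805, and against the marked controls alone it was 0.128. The mitotic members that did not pass were Ccnb2 (cyclin B2, -1.61 ± 0.70) and Aurkb, a kinase of the chromosomal passenger complex (-1.68 ± 0.70).

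The S-phase members differed less and more unevenly. Mcm2, a subunit of the replicative MCM helicase, was at 133, 65.3, 108.5 and 47.6 CPM in cultured controls and at 2.90 to 54.8 CPM (median 16.4) in re-isolated ones, and it fell by 2.39 on the log2 scale (SE 0.68; limma adjusted p = 0.00705). Ccne1 fell by 1.55 (SE 0.42; limma adjusted p = 0.00509), from 253, 103, 187 and 65.8 CPM to between 24.5 and 91.3 CPM. Mcm4, Mcm7, Ccne2 and E2f1 also fell, E2f1 by 0.84 (limma adjusted p = 0.0297), from 50.6, 31.6, 41.6 and 21.1 CPM to between 12.2 and 32.3 CPM. The E2f1 call was lost under median ratio scaling (adjusted p = 0.125) and without cultured control replicate 1 (0.122), by limma in each case. Mcm5 was at 120.6, 45.7, 107 and 32.7 CPM against 4.81 to 91.9 CPM (median 21.2), and its difference of -1.42 ± 0.68 did not pass. Mcm3, Mcm6, Cdc6, Rrm2 (a subunit of ribonucleotide reductase) and Tyms (thymidylate synthase) did not pass either, with differences from -1.32 to -0.48. Pcna was at 138, 66.5, 125 and 53.4 CPM in culture and 42.2 to 117 CPM (median 78.2) after re-isolation, a difference of -0.21 ± 0.28. Of the D-type cyclins, Ccnd2 fell by 2.99 (SE 1.09; limma adjusted p = 0.0288), and without cultured control replicate 2 its adjusted p by limma was 0.0665. Ccnd1 differed by -0.21 ± 0.45.

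Against cultured controls, the 5 marked re-isolated controls had 16 members past the threshold, all lower (37.5% of genes tested), and the 4 unmarked controls had 27 (37.9%). The median over the mitotic members was -1.77 with the marked and -3.18 with the unmarked set, and over the S-phase members -0.704 and -1.77. Leaving out 1 library at a time gave 14 to 25 members, with 14 without cultured control replicate 3, where 29.8% of genes fell. Against the marked and the unmarked set the difference was -3.15 ± 0.60 and -5.16 ± 0.67 for Mki67, and -1.72 ± 0.49 and -3.18 ± 0.43 for Cdk1. In Ccnd1 (0.47 ± 0.32 and -1.07 ± 0.29) and Tyms (0.07 ± 0.29 and -1.18 ± 0.30) the sign differed, and both fell past the threshold against the unmarked set alone (limma adjusted p = 0.00881 and 0.0057). E2f1 passed against the marked set and not against the unmarked one (limma adjusted p = 0.0117 and 0.155).

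**Figure D2:**
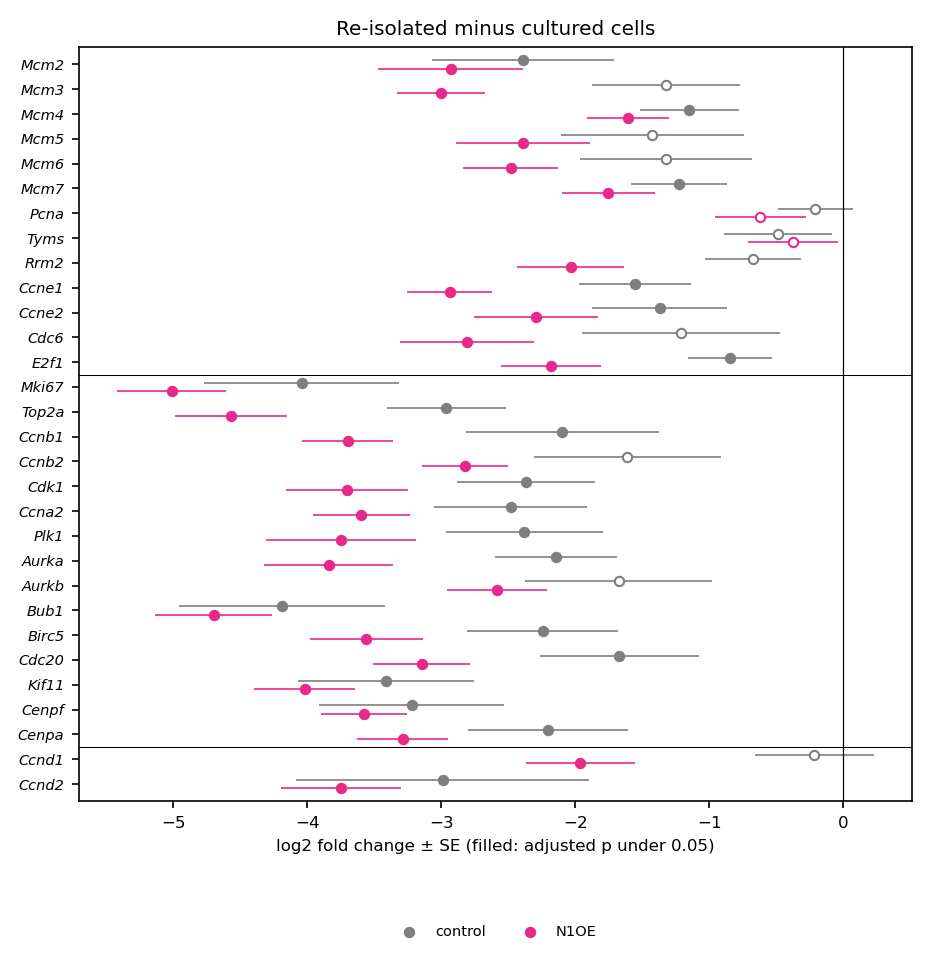
Log2 fold change with standard error (horizontal axis) of each member (vertical axis) between re-isolated and cultured cells, for control and for N1OE; filled points passed the test. Mitotic members (middle block) lie further left than most S-phase members (top block), and Pcna and Tyms lie closest to 0 in N1OE.

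N1OE cells showed the same direction with more members past the threshold. All 30 members had a negative difference, and 28 fell (limma; 33.0% of the 13178 genes tested fell): all 15 mitotic members, 11 of 13 S-phase members and both D-type cyclins. The medians were -3.70 over the mitotic and -2.29 over the S-phase members, beside -0.23 over all genes. The 2 members that did not pass were Pcna (-0.62 ± 0.34) and Tyms (-0.38 ± 0.34). Mki67 was at 499.8, 566 and 552 CPM in cultured N1OE and at 26.7, 19.5, 7.22 and 20.3 CPM in re-isolated N1OE, a difference of -5.01 ± 0.41 (limma adjusted p = 3.7e-07). Cenpf was at 166, 192 and 181 CPM against 14.2, 19.7, 10.3 and 17.4 CPM (-3.58 ± 0.32), and Top2a at 606, 705 and 699.5 CPM against 35.7, 36.3, 11.4 and 41.9 CPM (-4.57 ± 0.42). In these genes replicate 3 was the lowest of the 4 re-isolated libraries. Ccnb1 was at 169, 214 and 215 CPM against 15.6, 19.8, 9.19 and 18.9 CPM (-3.70 ± 0.34), Bub1 at 97.9, 119 and 118 CPM against 5.73, 2.48, 2.66 and 8.45 CPM (-4.70 ± 0.44), and Cdk1 at 157, 192 and 189 CPM against 16.1, 21.5, 4.98 and 20.2 CPM (-3.70 ± 0.46). Kif11 was at 156, 168 and 162 CPM against 8.13, 11.1, 6.10 and 17.7 CPM (-4.02 ± 0.37). For each of the 28 members that fell every re-isolated library lay below every cultured one, as in 36.5% of the genes tested. Leaving out 1 library at a time gave 28 or 29 members.

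The S-phase members of N1OE cells also lay lower after re-isolation, with Pcna and Tyms apart. Mcm2 was at 135, 163 and 169.6 CPM in culture and at 46.8, 40.7, 9.02 and 9.85 CPM after re-isolation (-2.93 ± 0.54), and Mcm5 at 108, 142 and 148 CPM against 38.7, 52.5, 8.94 and 21.4 CPM (-2.39 ± 0.50). Replicates 1 and 2 of the re-isolated libraries were the higher ones in both genes. Ccne1 was at 312, 280.2 and 291 CPM against 54.2, 37.8, 25.7 and 41.2 CPM (-2.94 ± 0.32), and E2f1 at 34.6, 37.6 and 40.2 CPM against 10.5, 11.9, 7.13 and 5.08 CPM (-2.18 ± 0.37). Pcna was at 128, 144 and 141 CPM against 89.1, 68.3, 68.7 and 153.5 CPM, and Tyms at 76, 82 and 83.2 CPM against 72.6, 48.8, 43.3 and 95.6 CPM. In both genes re-isolated replicate 4 was above every cultured library.

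Other genes of the same steps moved in the same direction. Of 28 other replication genes, 15 fell and 1 rose in control cells (median -1.23), the one that rose being Slbp, the histone mRNA binding protein (1.12 ± 0.20), and 23 fell in N1OE (median -2.09). In control cells 12 fell with the marked and 21 with the unmarked set. Of 26 other mitotic genes, 23 fell in control cells (median -2.55) and 26 in N1OE (median -3.73), among them Cenpe, a kinetochore motor (-3.62 ± 0.53 in control cells and -5.48 ± 0.33 in N1OE). With the marked and the unmarked set 21 and 25 of these mitotic genes fell in control cells. Among 17 genes of the retinoblastoma, E2F and DREAM network, 10 fell and 1 rose in control cells, and 12 fell and 1 rose in N1OE. E2f8, a repressor (-3.61 ± 0.42), and E2f3, an activator (-2.18 ± 0.26), were among those that fell in control cells, and Foxm1, the factor that switches on mitotic genes, fell by 4.49 (SE 0.45) in N1OE. Of 6 genes linked to cell cycle exit, Btg2 (2.88 ± 0.36) and Btg1 (2.15 ± 0.45), both antiproliferative genes, rose in control cells and Ccng1 (-3.66 ± 0.28) fell. Of 7 CDK inhibitors 4 fell and 1 rose in control cells: Cdkn2a (-2.11 ± 0.28) and Cdkn1c (-5.35 ± 1.30; 7.61 to 71.4 CPM in culture and 0 to 4.06 CPM after re-isolation) were among those that fell, and Cdkn2d rose (1.13 ± 0.28).

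Several other measures moved with the setting. Genes with at least 5000 exon bases had a median difference of -0.731 in control cells, against 0.163 for shorter genes, and -0.606 against 0.0793 in N1OE. Among members with fewer than 5000 exon bases the medians were -2.19 for 10 mitotic and -1.27 for 10 S-phase members in control cells, and -3.65 and -2.24 in N1OE. Among longer members they were -3.22 for 5 mitotic and -1.21 for 3 S-phase members in control cells, and -4.02 and -2.81 in N1OE. The mitotic median was thus the lower one at both lengths, and it was lower in the longer genes. The part of length in the result was not tested. This split by length was chosen after the data were seen. Median ratio scaling moved the median of all genes in control cells from -0.23 to 0.0285. The summed level of 8 macrophage markers was 3.08 to 11.7 CPM in cultured controls and 44.9 to 651 CPM in re-isolated ones (7 of 8 rose, and Adgre1, C1qa, C1qb and Tyrobp were at 0 in cultured controls). The sum of 6 fibro-adipogenic markers was 44 to 275 CPM and 99.2 to 7750 CPM (4 of 6 rose, where 3316 of all 13731 genes tested did). The part of these cells in the result was not tested, and in bulk libraries fewer cycling cells and less RNA per cell cannot be told apart.

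The contrast between both groups of genes was also read within each library, as the mean of the 15 mitotic members minus the mean of the 13 S-phase members, in log2 after centring each gene on its mean over the 23 libraries. It is given with no test. The difference was 1.14, 1.11, 1.34 and 0.738 in cultured controls and 1.27, 1.33 and 1.29 in cultured N1OE. In re-isolated controls it ran from -0.995 to 0.485 (median -0.23 in the marked and -0.51 in the unmarked set), and in re-isolated N1OE it was -0.371, -0.372, -0.50 and -0.0314. In N1KO it was -0.743, -3.39 and 0.146. The value of N1KO replicate 2 rests in part on mitotic members at the floor, with 0 reads for Ccnb1 and Cenpf and 1 read for Bub1 and Birc5. No re-isolated library reached the lowest cultured one, while the re-isolated groups overlapped. Neither mean alone separated the settings. The S-phase mean was -0.0101 in cultured control replicate 4 and 0.843 in re-isolated control replicate 4. The mitotic mean was 0.728 and 0.958 in the same libraries, and 0.786 in re-isolated control replicate 8.

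**Figure D3:**
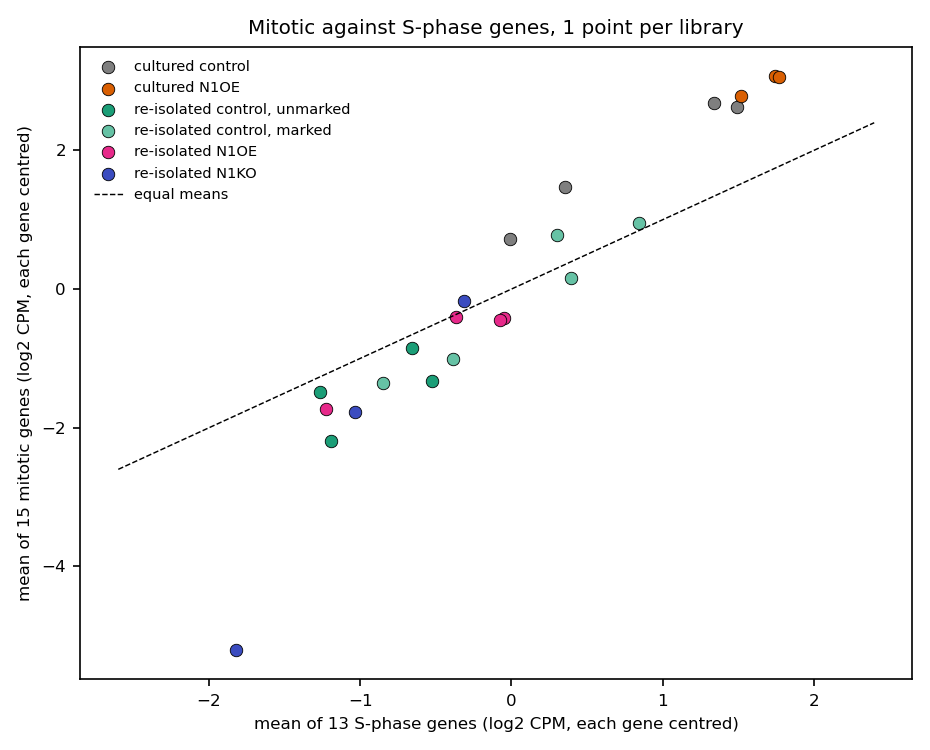
Mean of the 13 S-phase members (horizontal axis) against the mean of the 15 mitotic members (vertical axis), both in log2 CPM after centring each gene, with 1 point per library and a dashed line where both are equal. The 7 cultured libraries lie above the line by at least 0.738, most re-isolated libraries lie below it, and N1KO replicate 2 lies furthest below. Some mitotic members are at the floor in N1KO replicate 2.

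In culture, N1OE progenitors did not differ from control progenitors in any member past the threshold: 0 of 30 were called by limma (10.8% of 12314 genes tested were), and 13 had an unadjusted p under 0.05, as 32.3% of all genes did. Limma-voom on recovered reads called 0 as well. All 28 S-phase and mitotic members had a positive difference, with a median of 1.07 for mitotic and 0.937 for S-phase members, beside 0.0653 over all genes, while both D-type cyclins had a negative one. The smallest adjusted p was that of Mcm7 (0.94 ± 0.26; 0.0635), followed by Ccnd2 (-0.68 ± 0.22; 0.0853) and Mcm3 (1.16 ± 0.39; 0.0954), all by limma.

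The spread lay in the controls. Mki67 was at 524 and 414 CPM in control replicates 1 and 3, at 168 and 100.4 CPM in replicates 2 and 4, and at 499.8 to 566 CPM in N1OE. Ccnb1 was at 173 and 157 CPM in control replicates 1 and 3, 53 and 36.6 CPM in replicates 2 and 4, and 169 to 215 CPM in N1OE. Control replicates 1 and 3 thus lay close to N1OE in both genes. Cdc20 and Cenpa (the centromeric histone H3) departed from this, with Cdc20 at 56.4, 160.9, 151 and 39.7 CPM and Cenpa at 40.3, 84.6, 88.9 and 21.7 CPM in control replicates 1 to 4, so that replicate 2 was high and replicate 1 low; both were picked out after their values were seen. Ccnd2 was at 850, 1465, 1155 and 1619 CPM in controls and at 793.4, 699.7 and 818 CPM in N1OE, and so every N1OE library lay below every control. Ccnd1 was at 353, 606, 1028 and 571 CPM in controls and at 287, 484 and 506 CPM in N1OE, with overlap. In 12 members, 9 of them S-phase genes, every N1OE library lay above every control, as in 21.1% of the genes tested. Mcm7 was at 179.6, 102, 163 and 85.6 CPM in controls and at 222, 252 and 252 CPM in N1OE. Weighting the libraries by their spread (limma array weights) gave 12 members, 11 higher and Ccnd2 lower, where 29.3% of genes were called. Leaving out control replicate 1 gave 3 members, where 11.0% of genes were called, so that their share was near the background.

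In the wider lists, all 28 other replication genes and all 26 other mitotic genes had a positive difference (medians 0.862 and 1.04) and none passed limma, with 15 and 8 at an unadjusted p under 0.05. The share in the mitotic list was near that of all genes. Cdk4, the kinase partner of the D-type cyclins, rose by 0.35 (SE 0.09; limma adjusted p = 0.0485) and Btg1 fell by 0.71 (SE 0.18; limma adjusted p = 0.048). Markers of differentiated muscle moved the other way: 5 of 6 fell, and their summed level was 653 to 7701 CPM in controls and 195.4 to 829.4 CPM in N1OE. By control replicate this sum was 7701, 1962, 653 and 5268 CPM, so that replicate 1, with high Mki67, also had the highest muscle markers. The part of these cells in the result was not tested.

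Within the re-isolated controls, the marked libraries had higher cell cycle transcripts than the unmarked ones. Of the 30 members 14 rose (limma), against 13.6% of the 13230 genes tested, and the median difference was 1.28, beside -0.00496 over all genes. Of these, 6 were mitotic members, 6 were S-phase members and 2 were the D-type cyclins, so that 28 members had a positive difference and E2f1 (-0.49 ± 0.31) and Pcna (-0.06 ± 0.27) a negative one. Ccnd2 was at 822, 492, 872, 738 and 332 CPM in marked replicates 1, 4, 7, 8 and 9 and at 20.2, 25.2, 13.4 and 89.3 CPM in unmarked replicates 2, 3, 5 and 6, a difference of 4.45 ± 0.48 (limma adjusted p = 0.000175). The sets lay far apart in this gene. Ccnd1 was at 965, 738, 1150, 904 and 513 CPM against 357, 259, 272 and 258 CPM, again with no overlap (1.54 ± 0.26; limma adjusted p = 0.00167). The marked set was not uniform in the mitotic genes: Mki67 was at 9.16, 57.6, 31.8, 43.6 and 22.2 CPM in it, with replicate 1 inside the range of the unmarked libraries (1.82, 12.6, 8.91 and 10.5 CPM). Mcm3 (1.80 ± 0.39), Cdk1 (1.46 ± 0.37), Tyms (1.26 ± 0.32) and Mcm5 (2.03 ± 0.55) completed the 6 members of smallest p. Mcm3 was at 29.6, 94, 63.3, 72.9 and 45.8 CPM in marked and at 9.43, 12.3, 22.3 and 27.3 CPM in unmarked libraries. Cdk1 was at 18.6, 51.9, 41.4, 44.6 and 16.7 CPM against 10.8, 8.56, 14.2 and 12.6 CPM, and Tyms at 35.4, 89.1, 68, 69.9 and 47 CPM against 16.3, 19.3, 34 and 34 CPM. These 3 genes showed no overlap between the sets, which together with Ccnd1 and Ccnd2 makes 5 of 30 members where 10.8% of all genes lay higher in this way, while in Mcm5 marked replicate 1 lay among the unmarked libraries. Leaving out 1 library at a time gave 5 to 18 members, with 5 without unmarked replicate 2 (9.67% of genes rose in that fit) and 7 without replicate 3, 7 or 8. In those last fits 1221 of 13103, 1150 of 13147 and 1224 of 13121 genes rose.

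Genes around these members differed as well. Cdk6, the other partner of the D-type cyclins, was 3.38 ± 0.40 higher in marked controls on the log2 scale (limma adjusted p = 0.00032), and Cdkn1b, which encodes the CDK inhibitor p27, fell by 3.05 (SE 0.33; 0.00017). Cdkn1b was at 2.08 to 5.77 CPM in marked and 22 to 34.8 CPM in unmarked libraries. Gadd45a, a stress-induced growth arrest gene, fell by 2.84 (SE 0.28) and Rrm1, the large subunit of ribonucleotide reductase, rose by 1.97 (SE 0.18). Of the other replication genes 10 of 28 rose, and of the other mitotic genes 9 of 26. Cell type markers moved with the sets: 3 of 8 macrophage markers and 2 of 6 fibro-adipogenic markers rose, and 4 of 6 differentiated muscle markers and 3 of 10 satellite cell markers fell. Of all 13230 genes tested, 1797 rose and 1848 fell. The sum of the fibro-adipogenic markers was 982 to 7750 CPM in marked and 99.2 to 443 CPM in unmarked libraries, and that of the macrophage markers 73.5 to 651 CPM and 44.9 to 169.7 CPM. The 2 libraries with the highest macrophage sums, replicates 4 (651 CPM) and 8 (628 CPM), were also those with the highest Mki67. Most of both sums was Lyz2 (8600 and 7454 reads). Ptprc, Cd68, C1qb and Lyz2 were higher in replicate 8 than in replicate 9, where Mki67 was at 22.2 CPM. Adgre1, Csf1r, C1qa and Tyrobp were higher in replicate 9. The part of other cells in these values was not tested.

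**Figure D4:**
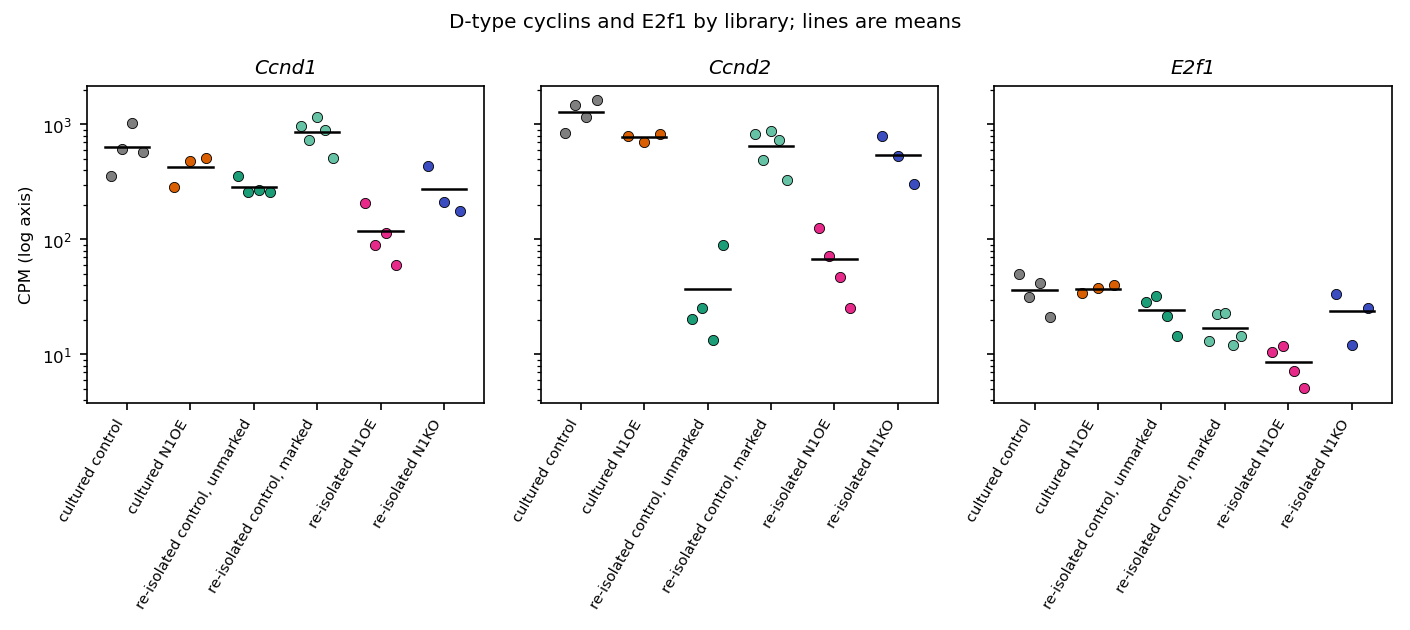
CPM on a log axis of Ccnd1, Ccnd2 and E2f1 in each library by group, with lines at the group means. Ccnd2 lies between 331.5 and 871.5 CPM in the marked and between 13.4 and 89.3 CPM in the unmarked re-isolated controls, and Ccnd1 and E2f1 in re-isolated N1OE lie below every re-isolated control.

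In re-isolated N1OE cells, Ccnd1 and E2f1 were lower than in re-isolated controls. These were 2 of the 30 members, where 3.29% of the 14155 genes tested were lower (limma), and no member rose. Ccnd1 was at 207, 88.7, 114 and 60.2 CPM in N1OE and at 258 to 1150 CPM (median 513) in the 9 controls, a difference of -2.28 ± 0.44 (limma adjusted p = 0.00297). E2f1, the first of the E2F factors, was at 10.5, 11.9, 7.13 and 5.08 CPM against 12.2 to 32.3 CPM (median 21.5), a difference of -1.22 ± 0.35 (limma adjusted p = 0.0413). Neither gene's groups overlapped, and 1.82% of all genes lay below every control in this way. The E2f1 call was near the threshold: its adjusted p was between 0.0541 and 0.138 in limma without the filter, with array weights, by limma-voom and with the replicate number as a block, and 0.128 without N1OE replicate 4. Leaving out 1 library at a time lost it in 9 of 16 fits. Against the marked controls alone the adjusted p of E2f1 by limma was 0.112. Against the marked controls Ccnd1 fell by 2.96 (SE 0.37; limma adjusted p = 1.82e-05), and against the unmarked ones it fell by 1.42 (SE 0.37; 0.0104).

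For the mitotic and the other S-phase members the direction depended on the control set. Against marked controls 13 of 15 mitotic and 10 of 13 S-phase members had a negative difference (medians -0.716 and -0.557), while against unmarked controls 14 of 15 mitotic and 11 of 13 S-phase members had a positive one (medians 0.691 and 0.476). Against the marked set 3 members fell, where 5.47% of genes did: Ccnd2 (-3.42 ± 0.42; adjusted p = 1.47e-05), Ccnd1, and Mcm3 (-1.32 ± 0.37; 0.0221), all by limma. Against the unmarked set Tyms rose (1.33 ± 0.38; limma adjusted p = 0.0183), where 9.33% of genes did, and Ccnd1 and E2f1 fell, where 10.1% did. Ccnd2 was at 125, 72, 46.7 and 25.3 CPM in N1OE, so that all 4 lay below the marked controls, and 3 lay within the range of the unmarked ones while replicate 1 lay above it. The range of Mki67 in N1OE (26.7, 19.5, 7.22 and 20.3 CPM) overlapped both sets. Its difference was -0.73 ± 0.62 against marked and 1.28 ± 0.68 against unmarked controls, and neither passed. Pcna differed by 0.25 ± 0.35 and 0.19 ± 0.34.

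In the wider lists, Cdkn2b, which encodes the CDK inhibitor p15, fell in N1OE (-1.32 ± 0.34; limma adjusted p = 0.0223), as did Cks2, a small CDK-binding protein (-1.18 ± 0.32), and Ccng1, a p53 target (-1.50 ± 0.34), while Btg2 rose (1.29 ± 0.39; 0.0467). Cdkn2b, Ccng1 and Btg2 also passed against each set alone, and Cks2 passed against neither (limma adjusted p = 0.0594 and 0.056). Against marked controls Cdk6 fell by 3.43 (SE 0.41), and against unmarked controls Cdkn1b fell by 2.14 (SE 0.37). Of the 28 other replication and 26 other mitotic genes, 1 passed against all 9 controls, namely Cks2. Of the markers of other cell types, 2 of 6 endothelial ones (Kdr and Emcn) rose in N1OE, as did 3 of 10 satellite cell markers, with a summed endothelial level of 41.4 to 85 CPM against 5.16 to 38.3 CPM in controls. The summed macrophage level was 30.7 to 151 CPM against 44.9 to 651 CPM (1 of 8 fell). Of 6 fibro-adipogenic markers 1 fell against all 9 controls and 3 fell against the marked ones, with sums of 177 to 380 CPM in N1OE and 982 to 7750 CPM in marked controls, which did not overlap. Of 4 erythroid markers 1 rose, and of all 14155 genes tested 535 rose. The part of these other cell types in the result was not tested.

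In N1KO cells no member passed the test against all 9 controls (limma; 0.657% of genes were called in either direction), and 10 members had an unadjusted p under 0.05, as 11.6% of all genes did. Limma-voom on recovered reads also called 0. All 15 mitotic members had a negative difference, with a median of -1.61, beside -0.826 for the S-phase members and 0.0123 over all genes. The 3 libraries were far apart. Mki67 was at 4.55, 1.21 and 16.8 CPM, Top2a at 10.7, 0.771 and 57.2 CPM, and Cdk1 at 8.04, 2.64 and 35.2 CPM in replicates 1 to 3. Ccnb1 was at 8.04 and 23.9 CPM in replicates 1 and 3 and had 0 reads in replicate 2, where 3 reads would be 0.165 CPM. Cenpf also had 0 reads there, and Birc5 (survivin, of the chromosomal passenger complex) and Bub1 had 0.0551 CPM, which is 1 read. Replicate 2 was thus below every control in all these genes, while replicate 3 lay within their range. Among the S-phase members, Mcm5 was at 9.61, 8.04 and 20.7 CPM, Mcm2 at 15.4, 5.78 and 16.7 CPM, and Pcna at 59.6, 58.4 and 132.8 CPM. Replicate 2 was inside the control range for these 3 genes, but below every control in 6 of the 13 S-phase members, among them Ccne1, Mcm6 and Mcm7, as it was in 14 of the 15 mitotic members. E2f1 was at 33.4, 12.1 and 25.6 CPM, which spans the range of the controls (12.2 to 32.3 CPM). Ccne1 was at 18.4, 8.81 and 42.1 CPM and had the smallest adjusted p with Top2a (0.247 by limma for each).

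Against the marked controls alone 5 members fell, where 1.33% of genes did (limma): Ccnd1 (-1.70 ± 0.40), Mcm3 (-1.66 ± 0.40), Mcm6 (-2.12 ± 0.54), Mki67 (-2.59 ± 0.67) and Ccne1 (-1.74 ± 0.45), with adjusted p from 0.0225 to 0.0364 by limma. Mcm3 was at 16.6, 12.4 and 28.3 CPM and Mcm6 at 12.6, 6 and 19.5 CPM in the 3 N1KO libraries, so that the third N1KO library was the highest in both. Against the unmarked controls alone 1 member passed: Ccnd2 rose by 4.18 (SE 0.55; limma adjusted p = 9.19e-05), where 3.88% of genes rose. Ccnd2 was at 802, 536 and 304 CPM in N1KO, with no overlap with the unmarked controls, and it differed from the marked ones by -0.27 ± 0.46. Ccnd1, at 436, 212 and 178 CPM, differed by -0.16 ± 0.40 from the unmarked controls. The CDK inhibitor gene Cdkn1c rose against both sets (limma adjusted p = 0.00477 and 0.00014), from 0 to 4.06 CPM in controls to 22.4, 29 and 28.4 CPM. Against all 9 controls its adjusted p by limma was 0.0524. The fibro-adipogenic sum was 3197, 8793 and 4974 CPM in N1KO replicates 1 to 3 and the macrophage sum 599, 166 and 592 CPM. Of 6 endothelial markers 4 rose in N1KO against all 9 controls (Pecam1, Cldn5, Emcn and Kdr), with sums of 43.5, 130.9 and 125 CPM against 5.16 to 38.3 CPM, while no fibro-adipogenic or macrophage marker passed (limma; 1 of each had an unadjusted p under 0.05). Among the 3, replicate 2, with the lowest mitotic levels, had the highest fibro-adipogenic and the lowest macrophage sum. Most of the fibro-adipogenic sum was Dcn, with 52848, 151429 and 78924 reads in replicates 1 to 3. Dpp4 and Ly6a were also highest in replicate 2, while Pdgfra, Cd34 and Pi16 were highest in replicate 3. The part of these cells was not tested.

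**Figure D5:**
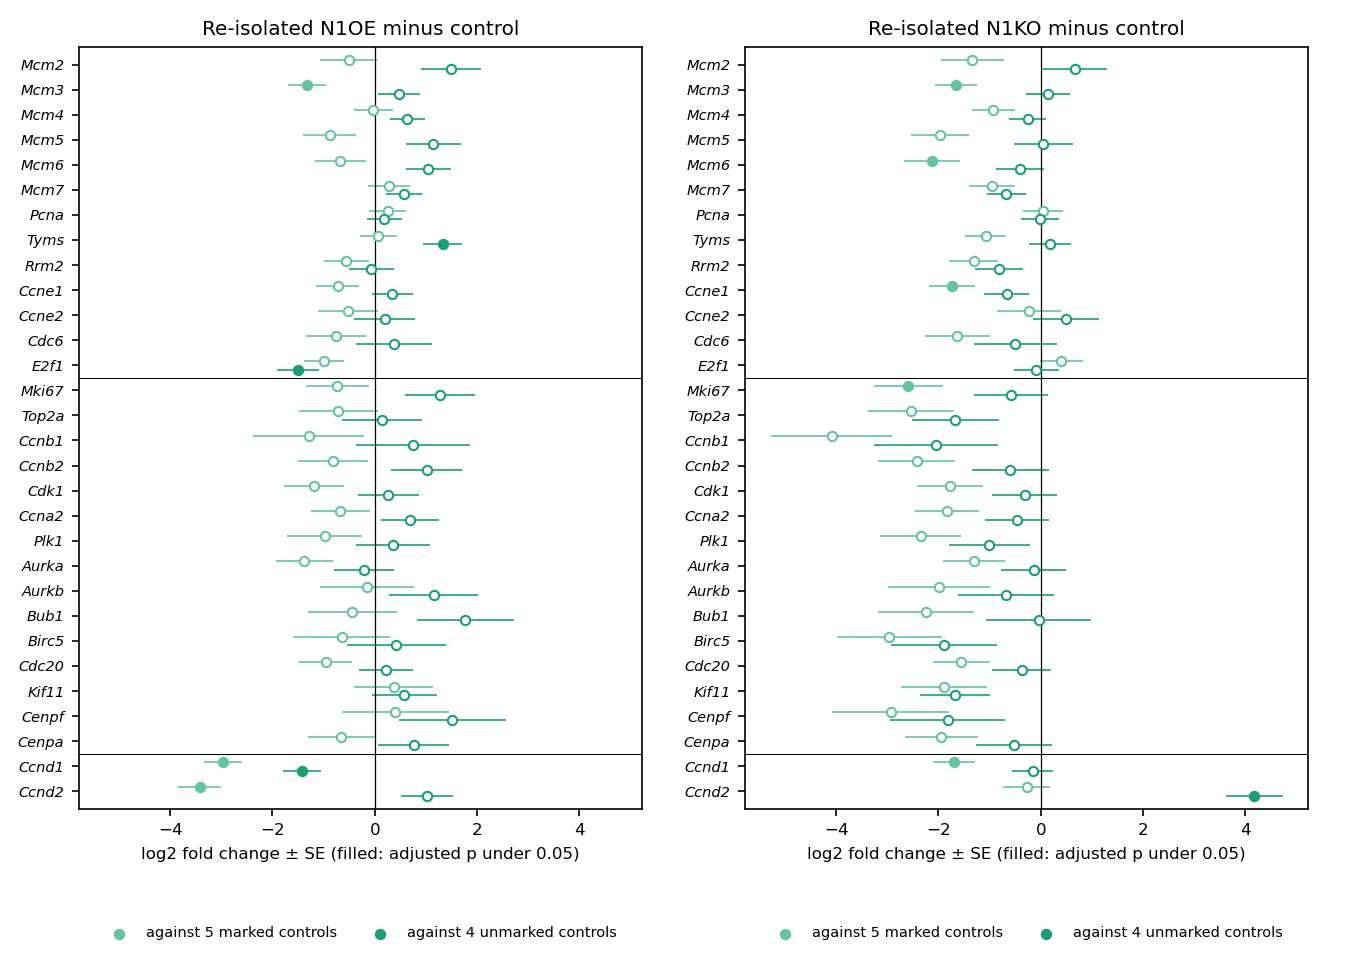
Log2 fold change with standard error (horizontal axis) of each member (vertical axis) for re-isolated N1OE (left) and N1KO (right), each against the marked and against the unmarked controls; filled points passed the test. Most N1OE points lie left of 0 against marked and right of 0 against unmarked controls, and Ccnd1 in N1OE is filled and left of 0 in both.

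Set against each other, N1OE and N1KO differed in no member past the threshold (limma; 7.35% of genes were called in either direction), with 7 at an unadjusted p under 0.05, and limma-voom also called 0. The 7 are near the background, since 23.6% of all genes had such a p. The differences were positive for 14 of 15 mitotic members (median 1.81) and 11 of 13 S-phase members (median 0.876), and negative for both D-type cyclins. Mcm7 (91.4, 111, 47.7 and 54.7 CPM in N1OE against 35.5, 20.2 and 39.3 CPM in N1KO) and Tyms lay higher in every N1OE library, as did 11.2% of all genes. E2f1 and Ccnd2 lay lower in every N1OE library, as did 12.1% of all genes, and E2f1 had the smallest adjusted p (-1.40 ± 0.45; 0.0627 by limma). Leaving out N1KO replicate 3 gave 5 members, all higher in N1OE, where 3.36% of genes were higher. Fitting both groups alone gave 4 members, where 12.0% of genes were called, which is near the background. Of the CDK inhibitors Cdkn2b (-2.30 ± 0.43; limma adjusted p = 0.00269) and Cdkn1a, which encodes p21 (-1.67 ± 0.37; 0.00852), were lower in N1OE. Fibro-adipogenic and macrophage sums were lower in N1OE too, at 177 to 380 CPM against 3197 to 8793 CPM and at 30.7 to 151 CPM against 166 to 599 CPM, and their part was not tested.

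Whether the N1OE effect differed between the settings was tested as an interaction. No member passed with all 9 re-isolated controls (limma; 3.27% of genes were called in either direction), and 6 had an unadjusted p under 0.05, as 14.6% of all genes did. Limma-voom called 0. The difference was negative for 29 of 30 members, Tyms being the other one (0.11 ± 0.59), with a median of -1.14. With the marked controls alone 3 members passed, where 2.22% of genes were lower: Ccnd2 (-2.74 ± 0.59; adjusted p = 0.00519), Mcm3 (-2.48 ± 0.54; 0.00591) and Ccnd1 (-2.43 ± 0.55; 0.00824), all by limma. With the unmarked controls alone 0 passed by limma, where 10.8% of genes did, 2 had an unadjusted p under 0.05, where 26.6% of genes had one, and Ccnd2 had the opposite sign (1.71 ± 0.71). Of the wider lists, Cks2 passed with all 9 controls (-1.89 ± 0.48; limma adjusted p = 0.0247), and Cdk6 passed with the marked controls (-3.21 ± 0.55; limma adjusted p = 0.000911).

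Some members share exon sequence with a neighbour on the opposite strand in GENCODE M21, and the counting is not stated to use strand. These are Mcm7 with Cops6 and Ap4m1, Ccne2 with Ints8, Ccna2 with Exosc9, Cdc20 with Elovl1, and Ccnd1 with LTO1. The shared stretch was 1100 of 4709 exon bases in Ccnd1 (ENSMUSG00000070348, GRCm38 chr7:144929931-144939925, minus strand) and 53 to 609 bases in the others. Reads of these stretches cannot be assigned to one of the genes. Ccnd2 (ENSMUSG00000000184, chr6:127125162-127152193, minus strand) and E2f1 (ENSMUSG00000027490, chr2:154559407-154569892, minus strand) share none.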

How the data were processed

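RNA was sequenced from 23 libraries in 5 groups, taken from the sample labels. Per the submitters' processing notes the authors used FastQC, Trimmomatic 0.33, featureCounts and edgeR with genome build mm10. Neither the aligner nor the annotation is named in them (not given in the sources used here). Deposited values are log2 CPM for 21264 genes, with the lowest value, -4.19, standing for 0 reads. Within a tolerance of 0.05, 100% of values came out as whole reads. These reads carry no molecular identifiers, and floors cover counting error only.

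Log2 values were compared with limma 3.58.1 in R 4.3.3 (trended variance, two-sided) over genes that reached 1 CPM in 3 or more libraries of the fit, with Benjamini-Hochberg adjustment over all genes tested and a threshold of 0.05. The fit was tested on simulated data first. Tables and figures were made with pandas 2.3.3 and matplotlib 3.10.9. Fold changes are log2 differences with standard errors (SE), and differences are re-isolated minus cultured, Notch genotype minus control, or marked minus unmarked. Alternatives were no filter, a 5 CPM filter, log2(CPM + 1), median ratio scaling, array weights, limma-voom on recovered reads, the replicate number as a block, either control set, fewer groups in the fit, and leaving out each library. Leaving out 2 libraries with another form of description, and the split by exon length, were added after the data were seen.

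The members and the wider lists were chosen with earlier results of these data known, and so was the split of the controls by column header. Values by library, or in places only as the range of a group, are given for 11 members fixed by name. The same holds for up to 6 members past the threshold per comparison by smallest p (the 3 with smallest p where fewer pass). From each wider list up to 3 genes per comparison are named. Gene positions and exon lengths come from GENCODE M21 on GRCm38, and promoters from RefSeq on GRCm38.p6.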

Additional observations from a re-analysis of the deposited data

Results flagged for a closer look

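Within re-isolated N1OE, replicate 3 lay far below the other 3 libraries in 3 members: Mcm6 at 17.1 CPM, Top2a at 11.4 CPM and Birc5 at 4.21 CPM. The others were at 35.5 to 39.8 CPM, 35.7 to 41.9 CPM and 12.1 to 14.6 CPM. These were 3 of 90 gene and group combinations tested, and chance alone marks about 1 in 20. That rate cannot be set against them, since all 3 lay in the same library and are not independent. Replicate 3 was below the gene mean in all 28 S-phase and mitotic members. Its mitotic mean was -1.73, against -0.418, -0.446 and -0.401 in replicates 1, 2 and 4.

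The N1OE effect differed between re-isolated and cultured cells in 3 members when the marked controls were used, tested as an interaction with limma: Ccnd2 (-2.74 ± 0.59), Mcm3 (-2.48 ± 0.54) and Ccnd1 (-2.43 ± 0.55). With all 9 re-isolated controls none of the 3 passed, and with the unmarked controls no member did.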

How the results depend on the processing

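No named member called against all re-isolated controls, or in a comparison without them, reversed its direction under the alternatives that were run. Calls made against 1 control set did change sign with the other: Ccnd2 in N1OE (-3.42 marked, 1.03 unmarked), in N1KO (-0.27, 4.18) and in the interaction (-2.74, 1.71), Mcm3 in N1OE (-1.32, 0.48) and N1KO (-1.66, 0.14), and Ccnd1 (0.47, -1.07) and Tyms (0.07, -1.18) between the settings. The number of members called in culture went from 0 to 12 with array weights and to between 0 and 3 when 1 library was left out; without the 2 libraries of another description form it was 0. For re-isolated N1OE it went from 2 to 1 without the filter, with array weights, by limma-voom and with the replicate block. In those fits 379 of 19113 genes, and 450, 263 and 216 of 14155 genes, were lower. Over left-out libraries it ranged from 1 to 2 members. For N1KO it was 5 with marked and 1 with unmarked controls, and 0 to 1 over left-out libraries. For N1OE against N1KO it was 1 with median ratio scaling, 3 with array weights and 1 with the replicate block. Of all 14155 genes, 1072, 2067 and 712 were called in these fits. The number of members was 4 with both groups alone, and 0 to 5 over left-out libraries. The N1OE effect between settings gave 3 with marked controls. Marked against unmarked controls ranged from 5 to 18 over left-out libraries, with 9 without replicate 4, where 1788 of 13055 genes rose. The mitotic minus S-phase difference of cultured N1OE moved from 1.30 to 1.18 with log2(CPM + 1), and lay between 1.21 and 1.36 when 1 member was left out. In the last 150 bases before the start, CHR letters were in 2 of 12 S-phase and 8 of 13 mitotic windows. E2F letters were in 4 of 12 S-phase and 3 of 13 mitotic windows there. The cause of these changes was not tested.

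Replicate numbers did not pair the libraries: the correlation of deviations between cultured control and N1OE of the same number was 0.037, 0.0707 and 0.468, and between re-isolated groups it ran from -0.158 to 0.154. With the replicate block, 16 members fell in control cells (3491 of 13731 genes did) and 29 in N1OE (4744 of 13178) between the settings. The E2f1 call in control cells was lost with it (limma adjusted p = 0.314) and against unmarked controls (0.155).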

Other observations

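In cultured controls, 5 mitotic genes chosen after their values were seen did not follow the order of Mki67, which was at 524 CPM in replicate 1 and 168 CPM in replicate 2. Cdc20 was at 56.4 CPM in replicate 1 and 160.9 CPM in replicate 2. Cenpa was at 40.3 and 84.6 CPM, Bub1b at 72.1 and 211 CPM, Ube2c at 56.4 and 167 CPM, and Pttg1 at 13.6 and 39.6 CPM in the same libraries. In replicate 3, all 6 genes were above their level in replicate 4.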
